A study of Mus musculus with 6 samples.

Results

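The transcripts described here encode the mitochondrial ribosomal proteins of mouse C2C12 myotubes exposed to sugarcane top ethanolic extract (STEE). They were taken as every probe set whose gene symbol begins with Mrpl or Mrps followed by a number, which gave 75 of 22206 tested probe sets (0.338%), 47 named for the large subunit and 28 for the small subunit. Each of the 75 symbols was read by 1 probe set. A further 2 probe sets name a gene of the family together with another gene (Mrpl53 with Ccdc142, Mrps6 with Slc5a3) and were left out. C2C12 is an established myoblast line from mouse skeletal muscle whose cells fuse into myotubes when serum is reduced. Total RNA was hybridized to 6 Clariom S Mouse arrays in 3 groups of 2 arrays: untreated myotubes (Ctrl-M), myotubes treated with STEE at 30 µg/mL for 6 h (STEE30-M) and myotubes treated at 50 µg/mL for 6 h (STEE50-M). All groups were on day 6 of differentiation, and the extract was given in serum-free Opti-MEM. Its stock was made in aqueous ethanol, and the study calls the controls nontreated without naming a vehicle. Effects of solvent or medium were not tested apart from those of the extract. The study speaks of biological samples, while the description of the series speaks of duplicate arrays, so the p-values below rest on a spread between arrays that may be technical only. An exact test of 2 arrays against 2 cannot go below p = 0.333, so the tests come from a model fitted across all probe sets.

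Mitochondria translate a small set of respiratory chain subunits on ribosomes of their own, and while the ribosomal RNAs of these ribosomes come from mitochondrial DNA, their proteins are encoded in the nucleus, made in the cytosol and imported. Some of the proteins descend from those of the bacterial ancestor and others were acquired later, so that the mitochondrial ribosome is richer in protein than the bacterial one. In muscle, whose fibres depend on oxidative phosphorylation, loss of single mitochondrial ribosomal proteins is known to impair respiratory chain assembly, and variants in several of the human genes cause combined oxidative phosphorylation deficiency.

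Markers of myotubes were expressed, as were most markers of myoblasts and fibroblasts. All 15 measured myotube markers lay above the background level of 5.32, which is the 95th percentile of the mean log2 signal of 1489 probe sets for odorant, vomeronasal and taste receptors, and their mean log2 signal was 13.93 to 14.90 per array. Of the 12 measured myoblast or reserve cell markers, 11 lay above background, with list means of 10.32 to 10.78 per array, and Pax7, which marks satellite cells, did not. Of the 8 fibroblast markers, 7 lay above background (list means 12.28 to 12.45), and Thy1 did not. Arrays correlated at 0.991 to 0.994 across probe sets, and array medians were 5.70 to 5.77. Because whole cultures were measured, fewer cells of a type and less RNA per cell cannot be told apart.

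The family was broadly expressed. Of the 75 genes, 73 had a mean log2 signal above background, and the median member was at 9.10, beside 9.12 for all 12032 probe sets above background. The 6 brightest probe sets were those of Mrpl51 (12.41), Mrpl42 (12.36), Mrpl33 (11.99), Mrps18c (11.41), Mrpl2 (11.27) and Mrpl20 (11.14). The 6 dimmest were those of Mrpl36 (4.50), Mrpl54 (4.85), Mrps15 (5.35), Mrpl46 (5.59), Mrpl4 (5.78) and Mrpl34 (6.30). Mrpl36 and Mrpl54 are the 2 members at or below background, and Mrps15 lay just above it. Signals depend on the probes as well as on the RNA, so this order is one of probe sets and not of transcript abundance. The brightest probe set, Mrpl51, encodes a protein of the large subunit without a bacterial counterpart, and read 12.42 and 12.39 in Ctrl-M, 12.27 and 12.52 in STEE30-M, and 12.37 and 12.51 in STEE50-M. Its groups overlapped. Mrpl42, also without a bacterial counterpart, read 12.24 and 12.50, then 12.20 and 12.54, then 12.30 and 12.40 in the same order of groups, with means of 12.37, 12.37 and 12.35. Mrpl33 read 11.63 and 12.20, then 11.62 and 12.25, then 12.41 and 11.83. For both, the arrays of a group lay further apart than the group means. Mrpl2, near the peptidyl transferase centre, read 11.16 and 11.60, then 11.14 and 11.50, then 11.29 and 10.93. Among the dim probe sets, Mrpl36 read 4.44 and 4.56, then 4.38 and 4.63, then 4.50 and 4.49, and Mrpl54 read 5.10 and 4.78, then 4.84 and 5.13, then 4.96 and 4.27. No array of either reached the background level. Mrpl4 read 5.86 and 6.05, then 5.52 and 5.83, then 5.45 and 5.98. Mrpl34 read 6.11 and 6.41, then 6.31 and 6.54, then 6.56 and 5.87. Of Mrpl2, Mrpl4, Mrpl33, Mrpl34, Mrpl36, Mrpl42 and Mrpl54, only Mrpl4 had a treated group that did not overlap Ctrl-M, with both STEE30-M arrays lower.

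The genes lie scattered over the genome. All 75 had a position in the annotation of GRCm38.p6, on 17 chromosomes, with 10 genes on chromosome 11 and 8 on chromosome 17. Promoter sequences from RefSeq (GRCm38.p6), running from 250 bases before to 50 bases after the start of transcription, matched 66 of the 75 genes. The head-to-head arrangement, which the choice of genes did not use, was more frequent among them than among protein-coding genes as a whole. Of the 66, 24 (36.4%) had the start of another protein-coding gene on the opposite strand within 1000 bases upstream. This compares with 8.5% of the 17491 protein-coding genes with a promoter entry and 13.2% of the 8571 of these above background on the arrays. The 24 include Mrps11 and Mrpl46, which are each other's partner. Several partners encode mitochondrial proteins themselves, but their share among the partners was not counted. Mrpl43 starts 116 bases from Twnk, the mitochondrial DNA helicase, Mrps12 starts 147 bases from Sars2, the mitochondrial seryl-tRNA synthetase, and Mrpl47 starts 308 bases from Ndufb5, a subunit of complex I. Mrps11 and Mrpl46, of the small and the large subunit, start 42 bases apart on chromosome 7, and the 41 bases between them are printed here on the strand of Mrps11, with a match to the SP1 letters GGGCGG in capitals (chr7:78783090-78783130, plus strand).
Mrpl46 to Mrps11: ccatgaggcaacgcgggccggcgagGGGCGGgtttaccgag
Mrps11 read 8.72 and 9.05 in Ctrl-M, 8.86 and 9.25 in STEE30-M, and 8.99 and 8.85 in STEE50-M. Mrpl46 read 5.72 and 5.91 in Ctrl-M, 5.50 and 5.48 in STEE30-M, and 5.74 and 5.17 in STEE50-M. The log2 fold change of STEE30-M against Ctrl-M was 0.17 (95% interval -0.36 to 0.70) for Mrps11 and -0.33 (-0.88 to 0.23) for Mrpl46, and both intervals include 0.

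Letters of 3 factors known for binding promoters of nuclear genes for mitochondrial proteins were frequent. NRF-1 and the ETS factor GABPA (NRF-2) are regulators of respiratory genes, and YY1 is a zinc finger factor that binds close to the start of many such genes. The letters GCATGCGC (NRF-1) were found on either strand in 8 of the 66 promoters (12.1%), beside 3.0% of all 27025 genes with a promoter entry and 6.1% of the 8634 of these above background. CCGGAAGT (ETS/GABPA) was found in 12 (18.2%, beside 4.3% and 9.1%) and AAGATGGC (YY1) in 12 (18.2%, beside 3.2% and 5.3%). At least 1 of these 3 was present in 29 promoters (43.9%, beside 9.9% and 18.9%). GGGCGG (SP1) was found in 33 (50.0%, beside 38.2% and 68.0%), the TATA box letters TATAAA in 5 (7.6%, beside 15.7% and 9.3%), and TCTCGCGA in 1, that of Mrpl57 (1.5%, beside 1.1% and 2.5%). A match is a run of letters and was not tested for binding, and a promoter without one lacks only those letters in this window. Stretches of the 120 bases before the start are shown because they belong to genes named below or carry repeated matches, with the matched letters in capitals (NRF-1 in Mrpl17 and Mrpl32, ETS/GABPA in the others).
Mrpl3 (chr9:105053148-105053267, plus strand): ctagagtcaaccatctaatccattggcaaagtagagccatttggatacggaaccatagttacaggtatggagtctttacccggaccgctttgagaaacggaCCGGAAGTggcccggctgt
Mrps22 (chr9:98601680-98601799, minus strand): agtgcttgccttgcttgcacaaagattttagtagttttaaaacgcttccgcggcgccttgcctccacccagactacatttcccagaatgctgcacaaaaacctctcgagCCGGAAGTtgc
Mrpl17 (chr7:105811088-105811207, minus strand): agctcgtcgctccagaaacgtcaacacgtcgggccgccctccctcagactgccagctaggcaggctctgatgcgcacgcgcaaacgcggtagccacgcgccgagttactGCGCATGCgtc
Mrpl32 (chr13:14613038-14613157, minus strand): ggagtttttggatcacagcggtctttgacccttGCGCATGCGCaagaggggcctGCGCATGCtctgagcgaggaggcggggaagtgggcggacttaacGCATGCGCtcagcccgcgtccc
The genes with NRF-1 letters had median log2 fold changes of 0.07 in STEE30-M and 0.12 in STEE50-M against Ctrl-M, those with ETS/GABPA letters -0.03 and 0.05, those with YY1 letters 0.00 and 0.05, and the 37 genes with none of the 3 had -0.03 and 0.02. No gene in any of these groups passed the test described next.

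**Figure D1:**
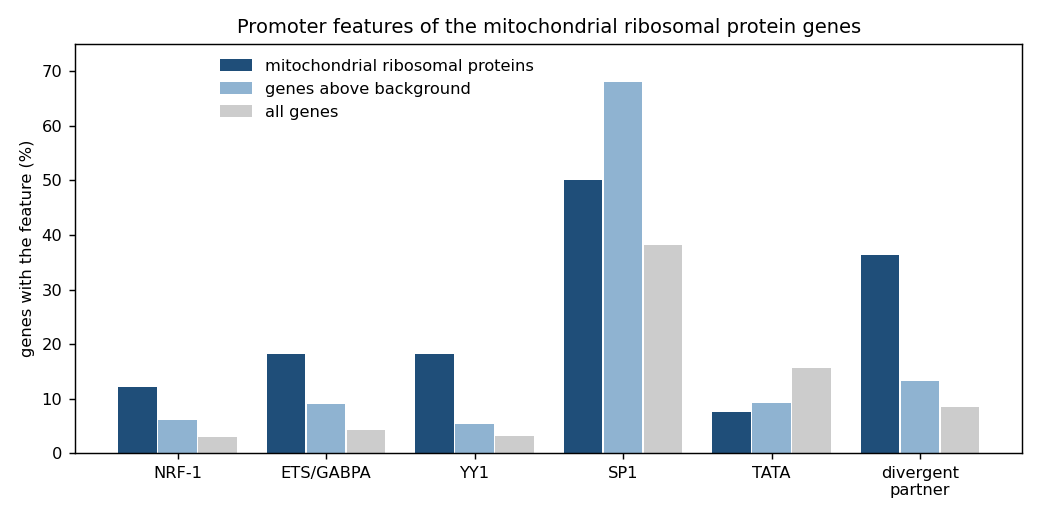
Share of genes (%, bars) whose promoter holds the letters of each named factor on either strand, or whose start has a divergent protein-coding partner within 1000 bases, for the mitochondrial ribosomal protein genes, for genes above background on the arrays and for all genes with a promoter entry. The shares of NRF-1, ETS/GABPA, YY1 and divergent partners were above both references (36.4% against 13.2% and 8.5% for partners), while SP1 lay between them.

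The first comparison asked whether the lower dose altered transcript levels. Against Ctrl-M, 0 of the 75 genes passed an unadjusted limma p under 0.05 with a fold change of at least 1.2 in either direction, where 4.09% of all probe sets and 2.28% of those above background passed, and 0% of all probe sets had an adjusted p under 0.05. Without the fold limit, 0 members had an unadjusted p under 0.05 in limma. With both limits, the unmoderated one-way ANOVA called 3 (Mrpl3, Mrpl28 and Mrpl47, each lower), where it called 3.26% of all probe sets. The median log2 fold change of the family was 0.00, beside -0.01 for all probe sets above background, and single genes ranged from -0.56 (Mrps15, whose STEE30-M mean of 5.02 lay below background) to 0.45 (Mrpl55). There were 37 positive and 37 negative differences and 1 of 0. A fold of at least 1.2 was reached by 14 genes and one of 1.5 by 0. The median absolute log2 fold change was 0.125, beside 0.135 for probe sets above background. On the deposited group averages, whose log2 scale is narrower, 2 genes reached a fold of 1.2, with differences of -0.38 to 0.19. The 95% intervals had a median half-width of 0.52 on the log2 scale, and 73 of the 75 lay within a change of 1 in either direction, which is a doubling or its inverse. Changes smaller than these intervals were not detectable with 2 arrays a group.

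The genes with the smallest p in this comparison were Mrps15, Mrpl55, Mrpl3 and Mrpl18. Mrps15, a small subunit protein with a bacterial counterpart that binds ribosomal RNA, read 5.65 and 5.50 in Ctrl-M, 4.69 and 5.35 in STEE30-M, and 5.35 and 5.53 in STEE50-M. Both STEE30-M arrays lay below both Ctrl-M arrays, but the STEE30-M arrays were 0.66 apart and 1 of them, at 4.69, lay below the background level, so the size of this difference is uncertain (log2 fold change -0.56, standard error 0.26, limma adjusted p = 0.998). Mrpl55, a protein of the large subunit, read 7.02 and 6.99 in Ctrl-M, 7.27 and 7.64 in STEE30-M, and 7.36 and 7.27 in STEE50-M. All 4 treated arrays lay above both Ctrl-M arrays, with log2 fold changes of 0.45 (95% interval -0.04 to 0.94) and 0.31 (-0.18 to 0.80). Mrpl3, which in bacteria sits close to the peptidyl transferase centre and whose human gene is mutated in combined oxidative phosphorylation deficiency, read 9.51 and 9.55 in Ctrl-M, 9.12 and 9.10 in STEE30-M, and 9.39 and 9.60 in STEE50-M. The STEE30-M arrays were the lowest of the 6 and close to each other, while Ctrl-M and STEE50-M overlapped (-0.42, 95% interval -0.88 to 0.04 for STEE30-M). Mrpl18, a protein of the central protuberance, read 8.75 and 8.83, then 8.18 and 8.59, then 8.58 and 8.81 in the same order of groups. STEE30-M did not overlap Ctrl-M (-0.41, -0.92 to 0.11) but overlapped STEE50-M.

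Counted by overlap, 7 of the 73 genes above background had both STEE30-M arrays above both Ctrl-M arrays, where 12.9% of probe sets above background did, and 15 had both below, where 15.9% did. For 12 of the 73 (16.4%) the difference of the means exceeded the gap between replicates in both groups, beside 18.1% of the probe sets above background.

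**Figure D2:**
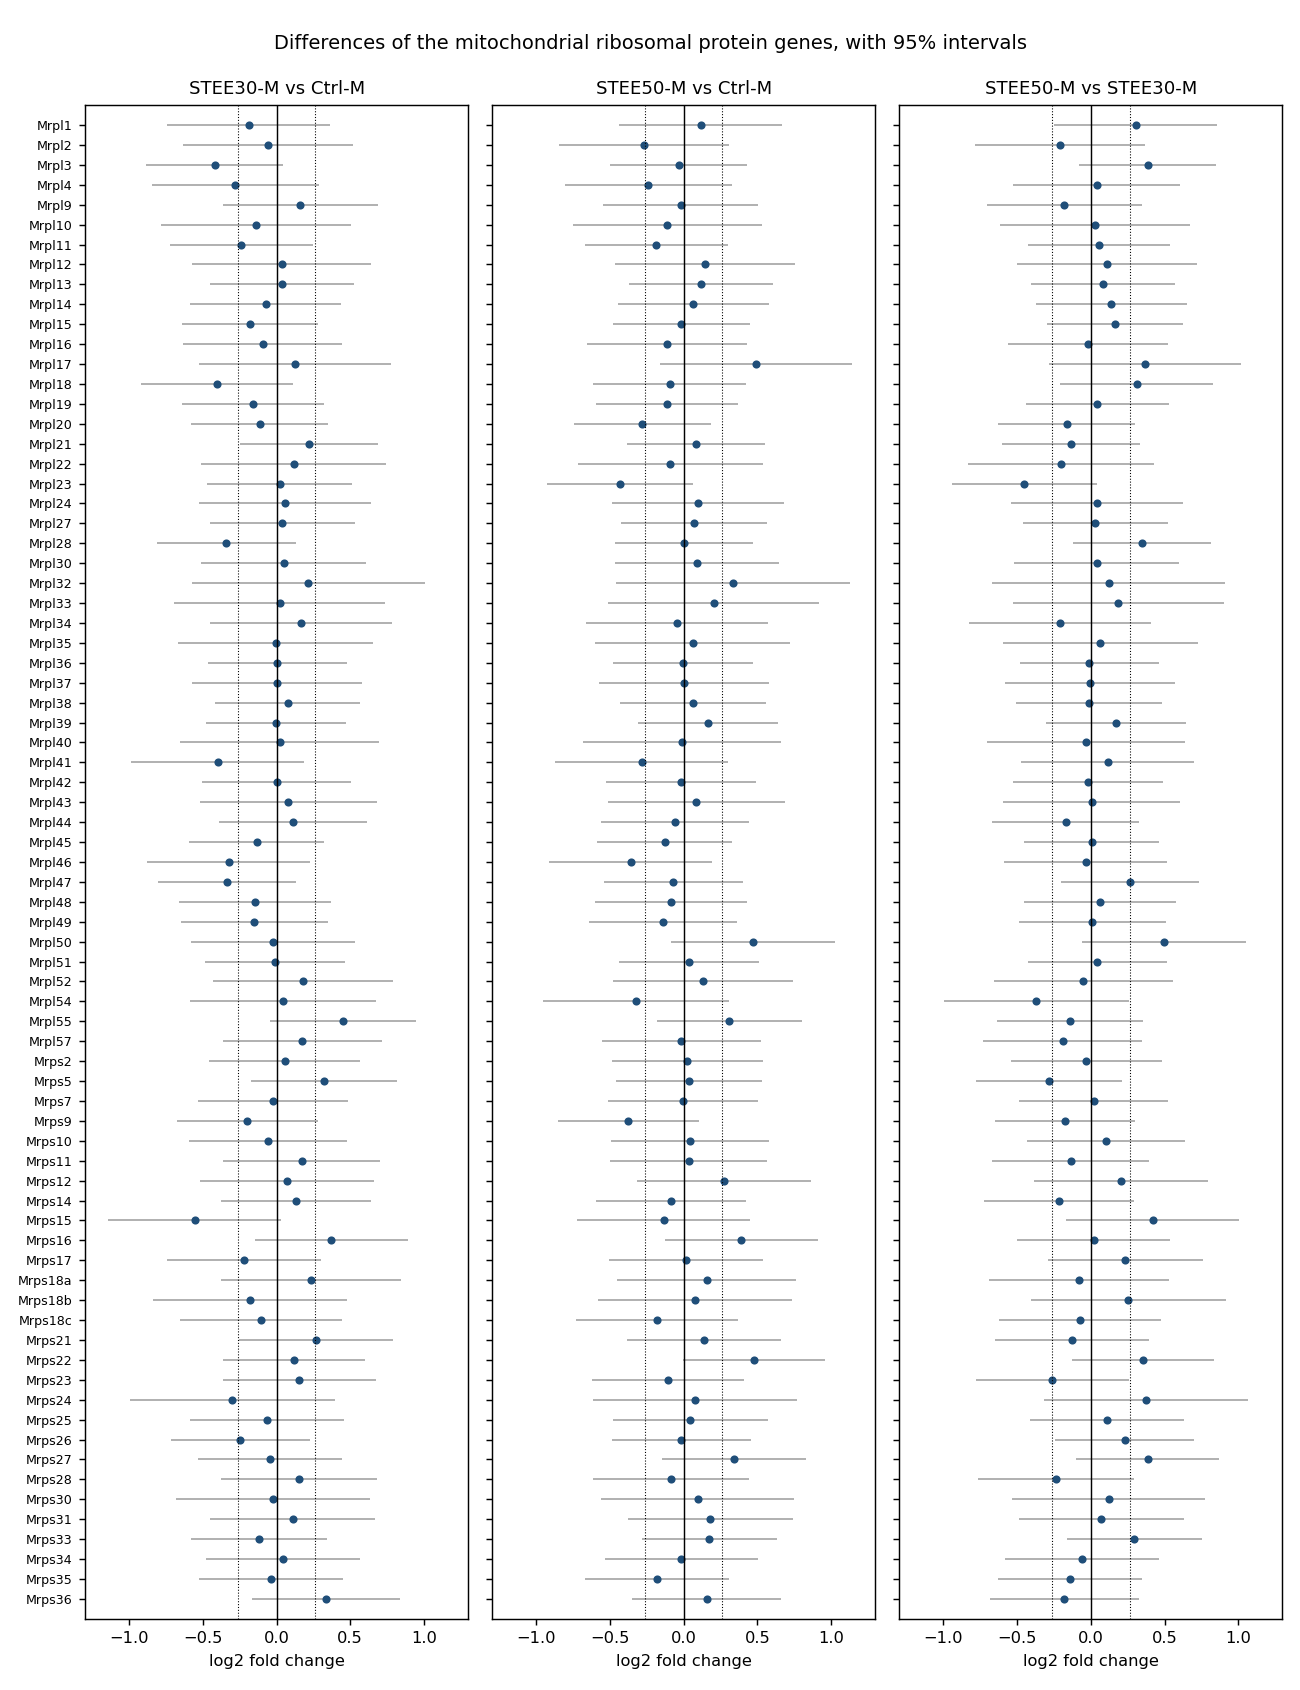
Log2 fold change (points) with 95% interval (lines) of each of the 75 genes in the 3 comparisons, with dotted lines at a fold of 1.2. Every interval includes 0, and the points run from -0.56 to 0.50.

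The second comparison asked the same of the higher dose. Against the same Ctrl-M arrays, 0 of the 75 genes passed in STEE50-M, where 5.05% of all probe sets and 3.67% of those above background passed, and 0% had an adjusted p under 0.05. Again 0 members had an unadjusted limma p under 0.05, and with both limits the unmoderated ANOVA called 1 (Mrps22, higher), where it called 3.8% of all probe sets. The median log2 fold change was 0.01 (0.00 for probe sets above background), with a range from -0.43 (Mrpl23) to 0.49 (Mrpl17). There were 38 positive and 36 negative differences, 15 genes reached a fold of 1.2 (1 on the deposited averages, with differences of -0.22 to 0.32) and 0 a fold of 1.5, and 72 intervals lay within a change of 1. Both STEE50-M arrays lay above both Ctrl-M arrays for 11 of the 73 genes above background (16.9% of probe sets) and below for 7 (18.0% of probe sets). The difference exceeded both replicate gaps for 13 (17.8%, beside 23.1%). The median absolute log2 fold change was 0.100, beside 0.155 for probe sets above background. Of 15 myotube markers, 14 were positive in the same comparison, with a median of 0.40, and Casq1 and Myh3 rose, while the list means were 13.95 and 14.17 in Ctrl-M and 14.12 and 14.90 in STEE50-M. Their part in the values of the ribosomal proteins was not tested.

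Mrps22, a small subunit protein found only in mitochondria whose human gene is a disease gene, came closest to the threshold. It read 9.16 and 9.32 in Ctrl-M, 9.41 and 9.31 in STEE30-M, and 9.58 and 9.85 in STEE50-M. Both STEE50-M arrays lay above all 4 others, a log2 fold change of 0.48 (95% interval -0.01 to 0.96, limma unadjusted p = 0.053, adjusted p = 0.952). Mrpl50, of the large subunit, read 9.39 and 9.31 in Ctrl-M, 9.05 and 9.60 in STEE30-M, and 9.70 and 9.94 in STEE50-M. The STEE50-M arrays were again the highest (0.47, -0.09 to 1.03), and the STEE30-M arrays lay on either side of Ctrl-M. Mrpl23, known from bacteria as a protein at the rim of the exit tunnel, read 8.79 and 8.99 in Ctrl-M, 8.77 and 9.05 in STEE30-M, and 8.55 and 8.37 in STEE50-M. Here the STEE50-M arrays were the lowest (-0.43, -0.92 to 0.06). Mrps9, a small subunit protein with a bacterial counterpart, read 9.23 and 9.18 in Ctrl-M, 8.87 and 9.14 in STEE30-M, and 8.76 and 8.90 in STEE50-M. All 4 treated arrays lay below both Ctrl-M arrays, and the intervals of both doses include 0 (-0.38, -0.85 to 0.10 for STEE50-M). Mrpl17 had the highest difference of this comparison (0.49) but a wide interval (-0.16 to 1.14), with 10.44 and 10.52 in Ctrl-M, 10.18 and 11.03 in STEE30-M, and 11.06 and 10.88 in STEE50-M.

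The third comparison set the doses against each other. In STEE50-M against STEE30-M, 0 of 75 genes passed, where 4.61% of all probe sets and 2.75% of those above background did, and 0% had an adjusted p under 0.05. The count at an unadjusted limma p under 0.05 was 0, and with both limits the unmoderated ANOVA called 3 (Mrpl3, Mrpl28 and Mrps33, each higher), where it called 3.57% of all probe sets. The median was 0.03 (0.01 for probe sets above background), the range -0.45 (Mrpl23) to 0.50 (Mrpl50), with 15 genes at a fold of 1.2 (4 on the deposited averages), and 71 intervals lay within a change of 1. The median absolute log2 fold change was 0.135, beside 0.145 for probe sets above background. The STEE50-M arrays lay above both STEE30-M arrays for 11 of the 73 genes above background (13.6% of probe sets). They lay below both for 5 (12.8% of probe sets). Besides Mrpl23 and Mrpl50, the smallest p belonged to Mrpl3 (0.39, 95% interval -0.08 to 0.85) and Mrps27 (0.39, -0.10 to 0.87). Mrps27, which carries pentatricopeptide repeats of the kind that bind RNA, read 7.38 and 7.50 in Ctrl-M, 7.32 and 7.47 in STEE30-M, and 7.93 and 7.63 in STEE50-M. The STEE50-M arrays lay above all 4 others.

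Few genes had an order over the 3 groups. Mrpl20, which in bacteria is an early assembly protein of the large subunit, read 11.32 and 11.22 in Ctrl-M, 11.17 and 11.14 in STEE30-M, and 11.10 and 10.88 in STEE50-M, so that the groups did not overlap and fell in the order of the dose. It was the 1 member of this kind, a pattern that 1.36% of probe sets above background had, and 0 members had the rising order (0.972% of probe sets). Its log2 fold change in STEE50-M was -0.28 (95% interval -0.75 to 0.19). All 4 treated arrays lay above both Ctrl-M arrays for Mrpl55, Mrps16, Mrps21 and Mrps36 (4 members, and 4.32% of probe sets above background), and below both, apart from the ordered Mrpl20, for Mrpl11, Mrpl45 and Mrps9 (3 members, and 5.17%). Mrps16, a small subunit protein of bacterial descent whose human gene is a disease gene, had log2 fold changes of 0.37 (-0.15 to 0.89) and 0.39 (-0.13 to 0.91). Mrpl45, which tethers the ribosome to the inner membrane, had -0.14 (-0.59 to 0.32) and -0.13 (-0.59 to 0.33). Both doses share the Ctrl-M arrays, so their values are not independent of each other.

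**Figure D3:**
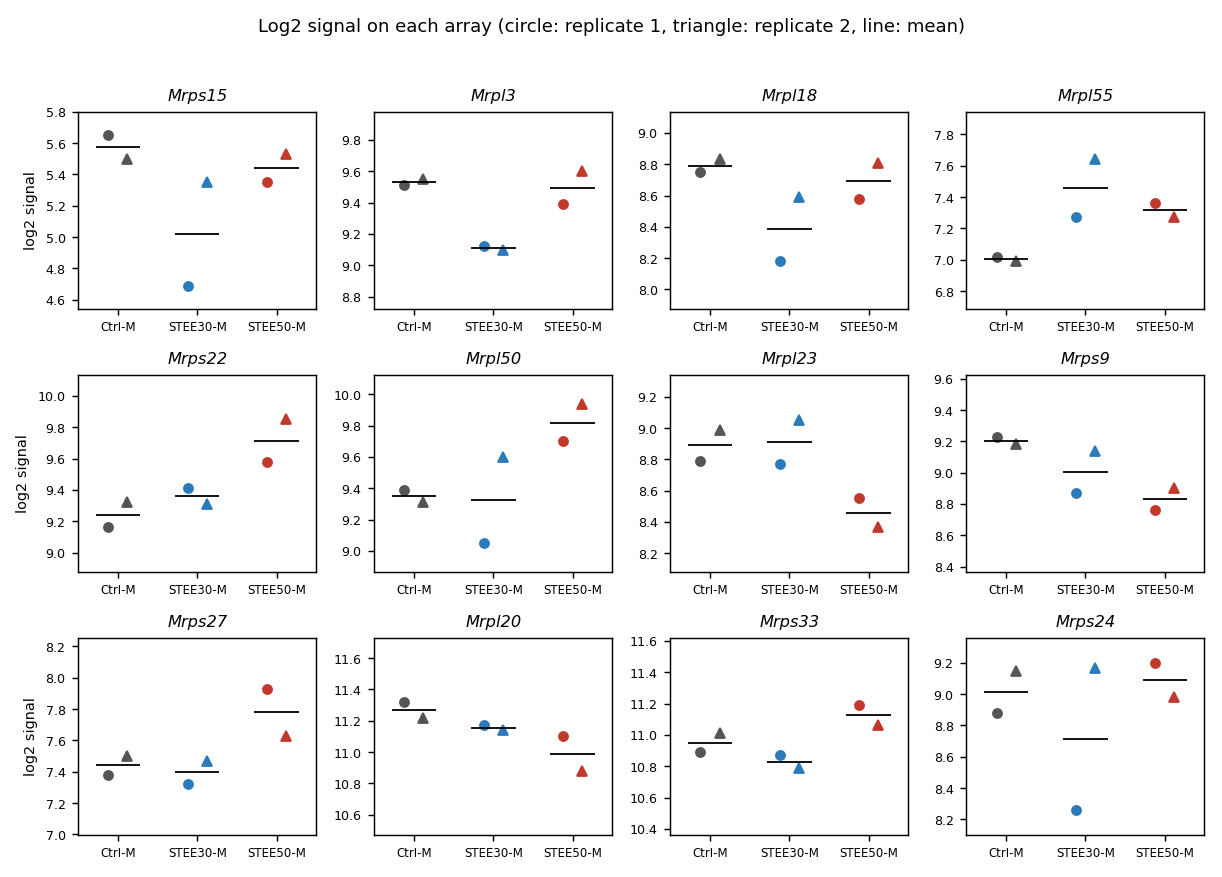
Log2 signal of 12 genes on each of the 6 arrays, by group, with circles for replicate 1, triangles for replicate 2 and lines for the mean of the 2 arrays; each panel spans the same number of log2 units. Mrpl3 was lowest in STEE30-M, Mrps22 and Mrps27 were highest in STEE50-M, Mrpl23 was lowest in STEE50-M, and the STEE30-M arrays of Mrps24 lay 0.91 apart.

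The subunits and the descent of the proteins gave like values. The 47 genes named Mrpl had median log2 fold changes of 0.00 in STEE30-M and -0.02 in STEE50-M against Ctrl-M, and the 28 named Mrps had 0.01 and 0.04. The 45 proteins with a bacterial counterpart had 0.01 at both doses and the 27 found only in mitochondria had -0.01 at both. A chosen list of 13 genes whose human counterparts cause disease, not meant as complete, had medians of 0.06 and -0.01. By place on the ribosome, the 5 proteins near the peptidyl transferase centre (Mrpl2, Mrpl3, Mrpl4, Mrpl16 and Mrpl27) ranged from -0.42 to 0.04 in STEE30-M. Of these 5, 4 were negative, beside 6221 of 12032 probe sets above background. The 3 proteins of the stalk, which recruits translation factors, ranged from -0.24 (Mrpl11) to 0.04 (Mrpl12). The 6 proteins around the exit tunnel ranged from -0.34 (Mrpl47) to 0.13 (Mrpl17) in STEE30-M and from -0.43 (Mrpl23) to 0.49 (Mrpl17) in STEE50-M. The 6 proteins of the central protuberance ranged from -0.41 (Mrpl18) to 0.45 (Mrpl55) in STEE30-M. The 5 small subunit proteins along the mRNA path ranged from -0.30 (Mrps24) to 0.32 (Mrps5).

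Some names do not match the place of the protein. Mrps30 and Mrps18a sit in the large subunit, and Mrps18b and Mrps18c, its paralogues, in the small subunit. Mrps18a read 9.98 and 10.39 in Ctrl-M, 10.10 and 10.74 in STEE30-M, and 10.37 and 10.31 in STEE50-M. Mrps18b read 9.43 and 9.48, then 8.84 and 9.71, then 9.44 and 9.62 in the same groups. Mrps18c read 11.29 and 11.72, then 11.37 and 11.43, then 11.52 and 11.13. The groups of each paralogue overlapped, and their log2 fold changes lay between -0.18 and 0.24 against Ctrl-M. Mrps30 had 8.49 and 8.77 in Ctrl-M, 8.19 and 9.02 in STEE30-M, and 8.67 and 8.78 in STEE50-M, with the Ctrl-M and STEE50-M values inside the range of STEE30-M. Mrps36, now known as a component of the alpha-ketoglutarate dehydrogenase complex rather than of the ribosome, read 9.13 and 9.25 in Ctrl-M, 9.32 and 9.73 in STEE30-M, and 9.37 and 9.32 in STEE50-M. All 4 treated arrays were above both Ctrl-M arrays, by log2 fold changes of 0.34 (95% interval -0.17 to 0.84) and 0.16 (-0.35 to 0.66). Mrpl12, which besides its place on the stalk binds mitochondrial RNA polymerase, read 8.97 and 9.56 in Ctrl-M, 9.19 and 9.41 in STEE30-M, and 9.62 and 9.20 in STEE50-M. Its groups overlapped.

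Replicate arrays of a group differed in the level of the family as a whole. The mean log2 signal of the 75 genes was 8.88 and 9.01 in Ctrl-M, 8.78 and 9.07 in STEE30-M, and 8.99 and 8.93 in STEE50-M. In STEE30-M, replicate 2 was above replicate 1 for 57 of 75 genes, by a median of 0.30, while the median over probe sets above background was 0.05, with 55.2% higher. In Ctrl-M it was above for 52 of 75, by a median of 0.12 (0.02 over probe sets above background), and in STEE50-M for 31 of 75, with a median of -0.08 (0.04). The largest gaps in STEE30-M were those of Mrps24, which takes part in mRNA entry (8.26 and 9.17), Mrpl40 (7.90 and 8.81) and Mrpl35 (6.79 and 7.68). A gap above 0.5 was found for 17 genes in STEE30-M (22.7%, beside 18.9% of probe sets above background), 3 in Ctrl-M (4.0%, beside 9.4%) and 6 in STEE50-M (8.0%, beside 17.6%). The largest gap of all was that of Mrpl32 in Ctrl-M (7.58 and 8.68). The median gaps of 2 other large gene families had the same signs. Replicate 2 exceeded replicate 1 for 65, 56 and 13 of 70 cytosolic ribosomal protein probe sets in Ctrl-M, STEE30-M and STEE50-M, with medians of 0.14, 0.20 and -0.20, and for 30, 34 and 7 of 36 complex I subunits, with medians of 0.19, 0.37 and -0.19. Markers of myotubes were higher in replicate 2 of every group (13, 14 and 15 of 15, with list means of 13.95 and 14.17, 13.93 and 14.32, and 14.12 and 14.90). Replicate 2 was higher for 6, 5 and 2 of 12 myoblast or reserve cell markers in the same order of groups. It was higher for 5, 1 and 4 of 8 fibroblast markers, and for 51.6%, 55.2% and 54.5% of probe sets above background. The part of these shifts in the comparisons was not tested. Without STEE30-M replicate 2, 5 genes passed as lower in STEE30-M than in Ctrl-M (Mrpl10, Mrpl18, Mrps15, Mrps18b and Mrps24), where 5.6% of all probe sets passed, and without replicate 1, 1 passed, as higher (Mrpl55), where 6.77% did.

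**Figure D4:**
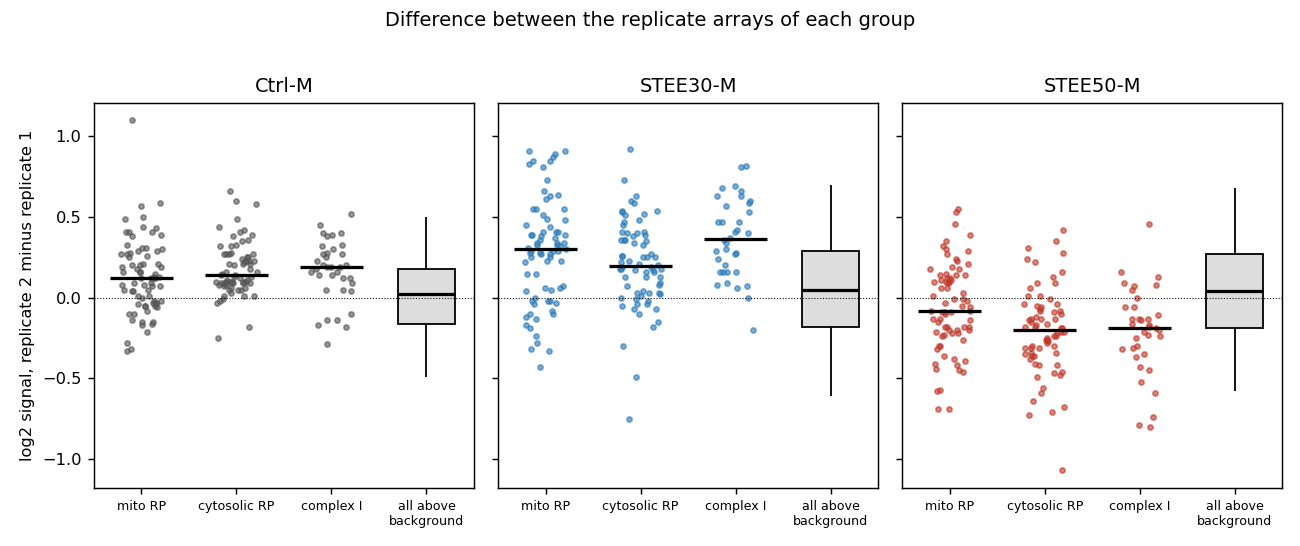
Log2 signal of replicate 2 minus that of replicate 1 in each group, with 1 point per probe set for mitochondrial ribosomal proteins, cytosolic ribosomal proteins (RP) and complex I subunits and black lines at the medians; boxes show the quartiles of all probe sets above background and whiskers their 5th and 95th percentiles. The medians of the 3 lists lay above 0 in Ctrl-M and STEE30-M (median 0.30 for the mitochondrial ribosomal proteins in STEE30-M) and below 0 in STEE50-M.

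Genes that build or serve the mitochondrial ribosome were set beside its proteins. Of the 6 ribosomal subunits that carry another name (Dap3, Chchd1, Aurkaip1, Ptcd3, Ict1 and Gadd45gip1), 0 passed in any comparison. Ict1, a release factor that became part of the large subunit, read 9.0 and 9.37 in Ctrl-M, 9.68 and 9.67 in STEE30-M, and 9.50 and 9.33 in STEE50-M. The STEE30-M arrays were the highest of the 6, at a log2 fold change of 0.49 (standard error 0.22). Gadd45gip1 stood at 0.44 in the same comparison and at 0.36 in STEE50-M against Ctrl-M. Dap3, a GTP-binding protein of the small subunit, stood at -0.25 in STEE50-M against STEE30-M. Among 21 measured assembly factors, 1 rose and 1 fell in STEE30-M, 2 rose in STEE50-M and 1 was higher in STEE50-M than in STEE30-M, where 4.09%, 5.05% and 4.61% of all probe sets passed in either direction. Mterf4, which guides the methyltransferase Nsun4 to the ribosome, read 6.67 and 6.71 in Ctrl-M, 7.29 and 7.37 in STEE30-M, and 7.20 and 7.61 in STEE50-M. It passed at both doses, with log2 fold changes of 0.64 and 0.72 (limma adjusted p = 0.998 and 0.952). Mtg2, a GTPase of large subunit assembly, read 6.64 and 6.63, then 6.23 and 5.91, then 6.67 and 6.73. It passed as lower in STEE30-M than in Ctrl-M (-0.57) and as higher in STEE50-M than in STEE30-M (0.63), while Ctrl-M and STEE50-M differed by 0.07 (limma adjusted p = 0.998, 0.997 and 0.997). Eral1, a GTPase that binds the small ribosomal RNA, read 6.83 and 7.30 in Ctrl-M, 7.33 and 7.68 in STEE30-M, and 8.02 and 7.69 in STEE50-M, and passed in STEE50-M (0.79).

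Of 15 translation factors, 0 passed in STEE30-M and 1 in STEE50-M. This was Mtrf1, a release factor homologue, at 0.56 against Ctrl-M, with all 6 arrays below background (3.62 to 4.45). Mtif3, an initiation factor, was higher in STEE50-M than in STEE30-M by 0.70, with 6.28 and 6.52 in Ctrl-M, 6.08 and 6.10 in STEE30-M, and 6.36 and 7.22 in STEE50-M. Replicate 2 was the one STEE50-M array above both Ctrl-M arrays, and without it the difference was 0.27 and did not pass. Of 17 mitochondrial aminoacyl-tRNA synthetases, which charge the tRNAs used by these ribosomes, 0 passed in any comparison. Their list means were 7.11 and 6.91 in Ctrl-M, 6.86 and 6.87 in STEE30-M, and 6.95 and 7.02 in STEE50-M. Ctrl-M replicate 1 was the highest of the 6 arrays, and the Ctrl-M arrays lay further apart than those of either dose. The differences of the synthetases from Ctrl-M in STEE30-M were negative for 14 of 17, with a median of -0.21, beside 11255 of 22206 probe sets and a median of -0.01. In STEE50-M they were negative for 11 of 17, with a median of -0.04. In STEE30-M the lowest was that of Sars2 (-0.43), with 7.02 and 7.04 in Ctrl-M and 6.65 and 6.56 in STEE30-M, followed by Nars2 (-0.39), with 7.42 and 7.43 in Ctrl-M and 6.90 and 7.18 in STEE30-M. Both pairs did not overlap. Tars2 stood at 0.23 in STEE50-M against Ctrl-M, and Aars2, at or below background on all arrays, at 0.45 between the doses. None of these calls had an adjusted p under 0.05, and of the 7 calls of assembly and translation factors, each was lost without at least 1 array. For Mterf4 in STEE30-M these were either Ctrl-M array or STEE30-M replicate 2 (p of 0.061 to 0.075 in limma without adjustment), while its log2 fold change stayed at 0.60 to 0.66. The unmoderated ANOVA ended the calls of Eral1, Mtrf1 and Mtif3 and kept those of Mterf4 and Mtg2.

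**Figure D5:**
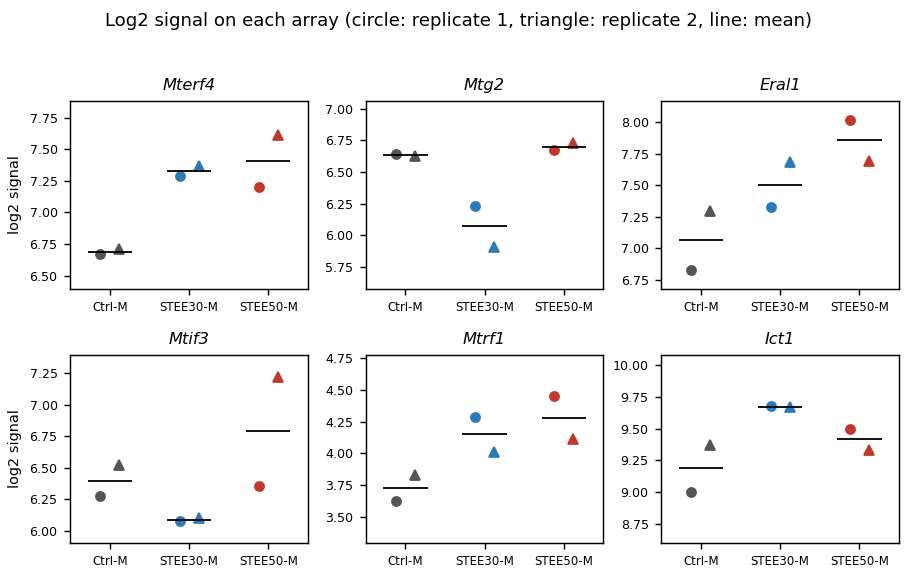
Log2 signal on each of the 6 arrays of 6 genes that build or serve the mitochondrial ribosome, by group, with circles for replicate 1, triangles for replicate 2 and lines for the mean of the 2 arrays. Mterf4 was higher in all 4 treated arrays (7.20 to 7.61) than in both Ctrl-M arrays (6.67 and 6.71), Mtg2 was lowest in STEE30-M, and Mtrf1 stayed under the background level.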

How the data were processed

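Total RNA of C2C12 cultures was read on 6 Clariom S Mouse arrays. The authors deposited log2 signals, rounded to 2 decimals, made by SST-RMA over the 6 arrays. The file header names the Affymetrix Power Tools engine of Expression Console (version 1.4.1.46), while the study names Transcriptome Analysis Console. Per the file headers the steps were correction for GC content, scaling of intensities, RMA background, quantiles and a median polish. The value table of the series is equal to these signals in all 173076 values. The authors' log2 group averages lie on a narrower scale (SD over probe sets 2.23 against 3.39 in Ctrl-M), and were used for gene symbols and this comparison of scale. The other sheets hold the authors' fold changes and p-values and were not used.

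Without the 6640 array controls, 22206 probe sets were fitted in R 4.3.3 with limma 3.58.1 (3 group means, eBayes, prior degrees of freedom 5.75). A gene passed with p under 0.05 before adjustment and a fold of at least 1.2. These are the limits of the study, whose log2 wording of the fold was taken as linear. Per log2 unit of the authors' averages the members spanned 1.65 to 1.73 units in the values used here, so the same fold is a looser limit here. Adjustment (Benjamini-Hochberg) ran over the whole table. Intervals are 95%. The fit was checked on simulated data with independent noise for each probe set. Such data hold no shift shared by a gene family, so the check does not cover the replicate shifts described above. The number of arrays limits the precision.

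The members and lists were chosen with earlier results of these data known, and the groups by place on the ribosome, disease and promoter letters, with the repeats on related genes, after the values were seen. Named in full are the 4 members with the smallest p in each comparison, the 6 brightest and dimmest by mean, the members of special place (Mrps30, Mrps18a, Mrps18b, Mrps18c, Mrps36 and Mrpl12) and any member ordered over the groups. Others were chosen after their values were seen. Alternatives were an unmoderated ANOVA, the arrays of both groups alone, a prior following the signal, dim probe sets left out, quantile normalization, median centring, a fold of 1.5, 1 probe set per symbol, a replicate block and each array left out.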

Additional observations from a re-analysis of the deposited data

Results flagged for a closer look

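Mrps33, a small subunit protein found only in mitochondria, was the 1 gene of the 75 whose doses lay on opposite sides of Ctrl-M on every array. This pattern was found in 1.84% of probe sets above background, and 1 gene among 75 is not above that share. It read 10.89 and 11.01 in Ctrl-M, 10.87 and 10.79 in STEE30-M, and 11.19 and 11.06 in STEE50-M, so that both STEE30-M arrays were below and both STEE50-M arrays above both Ctrl-M arrays. The log2 fold change was -0.12 at the lower and 0.18 at the higher dose, and the difference between the doses, 0.295 (95% interval -0.16 to 0.75), did not pass in limma (adjusted p = 0.997). The unmoderated ANOVA called this difference between the doses, as it did for 3.57% of all probe sets.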

How the results depend on the processing

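The count of genes passing, 0 in each comparison, moved under some alternatives. The unmoderated ANOVA gave 3 in STEE30-M against Ctrl-M, 1 in STEE50-M against Ctrl-M and 3 in STEE50-M against STEE30-M (724, 843 and 792 of all probe sets), and leaving out dim probe sets gave 3 (Mrpl55 higher, Mrpl3 and Mrps15 lower), 1 (Mrps22, higher) and 1 (Mrpl23, lower). Fitting the arrays of both groups alone gave 1 in STEE50-M against Ctrl-M (Mrpl17), where 5.99% of all probe sets passed. A prior following the signal gave 1 in that comparison (Mrps22, beside 4.92% of all probe sets) and 1 between the doses (Mrpl50, beside 4.02%). Quantile normalization gave 1 between the doses (Mrpl23, lower, beside 1050 of all probe sets). Leaving out 1 array gave 0 to 5, 0 to 3 and 0 to 5 genes. The highest counts came without STEE30-M replicate 2 (5 lower in STEE30-M, and 5 higher in STEE50-M than in STEE30-M: Mrpl17, Mrpl50, Mrps15, Mrps18b and Mrps24) and without STEE50-M replicate 1 (Mrps22 higher, Mrpl46 and Mrpl54 lower than Ctrl-M). Without STEE30-M replicate 2, the family's share passing was below that of all probe sets between the doses. It was above that share in STEE30-M against Ctrl-M. Without STEE50-M replicate 1, it was below that of all probe sets in STEE50-M against Ctrl-M. Without Ctrl-M replicate 2, Mrpl32 passed as higher at both doses, and the family's share was again below that of all probe sets. A lone array was taken to vary as the remaining groups do, and the cause of these changes was not tested. The sign of the family's median log2 fold change turned with the array left out. The medians ran from -0.09 to 0.07 without a Ctrl-M array and from -0.13 to 0.15 without a STEE30-M array in STEE30-M against Ctrl-M, from -0.06 to 0.07 in STEE50-M against Ctrl-M and from -0.11 to 0.17 between the doses. The 4 genes with the smallest p in each comparison kept their direction under the alternatives run. For the arrays left out this was fixed beforehand, since the groups compared did not overlap for these genes. It was fixed as well wherever the group means stayed the same. This holds for the unmoderated ANOVA, both groups alone, the signal-following prior and the fold of 1.5. It also holds for dim probe sets left out, 1 probe set per symbol and the replicate block. Only quantile normalization and median centring could have turned a direction. Of all 75, leaving out 1 array of the groups compared turned the sign of 10 to 25 genes. Without STEE30-M replicate 1, Mrps24 went from -0.30 to 0.16, Mrps18b from -0.18 to 0.26 and Mrps30 from -0.03 to 0.39 in STEE30-M against Ctrl-M, and Mrpl17 from 0.37 to -0.06 between the doses. Without STEE30-M replicate 2, Mrpl17 went from 0.13 to -0.30 in STEE30-M against Ctrl-M. This count of signs was chosen after seeing the data. Over all probe sets, 909, 1121 and 1023 passed, 380, 599 and 469 with dim probe sets left out, and 616 to 1503, 658 to 1331 and 821 to 1579 with 1 array left out. Arrays of equal replicate number had deviations correlated at 0.05, 0.08 and 0.00 over probe sets above background and at -0.04, 0.13 and -0.13 over the family. These values are low gene by gene. A correlation over genes does not register a shift shared by a whole list, so it cannot decide whether equal numbers are pairs. Myotube markers were higher in replicate 2 of every group. With the replicate block, 0 genes of the family passed in each comparison, as without it, and 920, 1157 and 1090 of all probe sets did. With 2 arrays a group, changes under about 0.5 log2 units were within the intervals, and Mrpl36 and Mrpl54, at background, could show little.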
